A study of Mus musculus with 4 samples.

Results

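RNA of 9 genes of the helix-loop-helix network was followed in sparse and dense cultures of BEKO, a cell line of mouse thymic lymphoma. The genes were 3 of the ID family (Id1, Id2 and Id3), 3 of the E protein family (Tcf3, Tcf4 and Tcf12) and 3 linked to T cell leukaemia (Tal1, Lyl1 and Lmo2). They were taken by symbol, and all 9 were found among the 25630 rows of the deposited table. There were 2 libraries from cells at low density and 2 at high density, all with wild-type (WT) genotype and no treatment named, and the labels give neither the cell number nor the culture time. Whether libraries of the same density are separate cultures is not stated, and the spread on which the p-values rest may therefore be technical. Levels are TPM, transcript abundances scaled by length and to a fixed total per library, and can be compared between genes.

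E proteins are basic helix-loop-helix transcription factors that pair with each other or with tissue-restricted partners and bind the E-box, a short DNA motif. ID proteins have the helix-loop-helix but lack the basic region, so that an E protein held by an ID protein cannot bind DNA. In the thymus E proteins drive recombination of receptor genes and hold precursors at the checkpoints before receptor signalling, and signalling through the receptor induces Id3, which also takes part in the choice of the γδ T cell fate. TAL1 and LYL1 are basic helix-loop-helix partners of E proteins, and LMO2 is a LIM-domain bridge in their complexes. Normal T cells silence these 3 genes early, and their ectopic expression is a known lesion of T cell leukaemia.

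The symbols were first checked, because older mouse annotations used Tcf3 for another gene. The table had separate rows for Tcf3 and for Tcf7l1, the present name of that other gene, and 0 rows under Tcfe2a, the older name of the E protein gene. Tcf3 was therefore read as the E protein gene, at 174 to 269 TPM over the 4 libraries, while Tcf7l1 lay between 0 and 0.219 TPM. Tcf4 here is an E protein gene and not Tcf7l2, which also had a row of its own at 0 to 0.017 TPM.

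The promoters of the ID genes Id2 and Id3, whose high density values both lay above the low density ones, and of the E protein gene Tcf3, for which they lay below, are shown because the E-box lies at the centre of this network. Tcf12, whose high density values also lay above, has 3 start sites in the promoter table and is not printed. Of the 9 members, 6 had an entry in the RefSeq promoter table (build GRCm38.p6), and Id1, Tcf4 and Lmo2 are named only. The 250 bases before the start site are given 5′ to 3′ on the strand of the gene, at chr12:25096093-25096342 (minus strand) for Id2, chr4:136143572-136143821 (plus strand) for Id3 and chr10:80433636-80433885 (minus strand) for Tcf3. These coordinates are not of the build named for the deposited table. Capitals mark E-boxes, searched as CANNTG, which reads the same on the other strand.
Id2: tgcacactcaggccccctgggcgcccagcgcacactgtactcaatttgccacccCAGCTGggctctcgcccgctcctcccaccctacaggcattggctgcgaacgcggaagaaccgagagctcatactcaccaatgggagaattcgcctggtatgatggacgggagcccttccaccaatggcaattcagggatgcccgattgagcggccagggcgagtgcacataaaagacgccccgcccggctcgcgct
Id3: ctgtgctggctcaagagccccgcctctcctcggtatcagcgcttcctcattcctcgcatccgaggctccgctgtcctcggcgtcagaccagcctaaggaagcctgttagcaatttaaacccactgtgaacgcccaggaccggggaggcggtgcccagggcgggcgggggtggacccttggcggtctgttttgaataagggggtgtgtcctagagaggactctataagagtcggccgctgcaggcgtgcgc
Tcf3: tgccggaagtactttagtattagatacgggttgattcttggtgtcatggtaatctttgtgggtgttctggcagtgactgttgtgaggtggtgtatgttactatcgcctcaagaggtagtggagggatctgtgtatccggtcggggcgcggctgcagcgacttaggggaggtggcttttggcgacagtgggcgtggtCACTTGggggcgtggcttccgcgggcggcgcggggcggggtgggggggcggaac
The Id2 window held 1 E-box, CAGCTG, whose first base lay 196 bases before the start site. The Id3 window held 0. The Tcf3 window held 1, CACTTG, at 54 bases before the start site. Over all 32851 promoter windows of the same length 66.2% held at least 1 CANNTG, and 13.0% held CAGCTG. A match to CANNTG is thus common, and one to CAGCTG less so. The core of the hypoxia response element, searched as ACGTG or GCGTG on both strands and overlapping the E-box where that reads CACGTG, was found in 38.6% of all windows. It occurred 0 times in the Id2 window, 1 time in that of Id3 and 2 times in that of Tcf3. A match describes the letters of the window, not a binding site.

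Of the 9 members, 6 averaged at least 1 TPM across the libraries and were tested, and the 3 leukaemia-linked genes lay below that filter. Limma called 1 of the 6 at a Benjamini-Hochberg adjusted p under 0.05, Id1, which was lower at high density, and 0 were called higher. Among all 10936 rows tested 2.11% were called lower and 4.57% higher, or 6.68% in either direction. The densities did not overlap for 5 of the 6 members, 3 higher and 2 lower, beside 54.7% of all rows tested. The median log2 fold change, on the log2(TPM + 1) scale, was 0.23 for the 6 members and 0.12 for all rows tested, a general shift against which single genes should be read. The shift was 0.27 with high density library 1 left out and −0.02 with high density library 2 left out. The test rests on 2 libraries a group, for which the smallest p of an exact permutation test is 0.333.

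**Figure D1:**
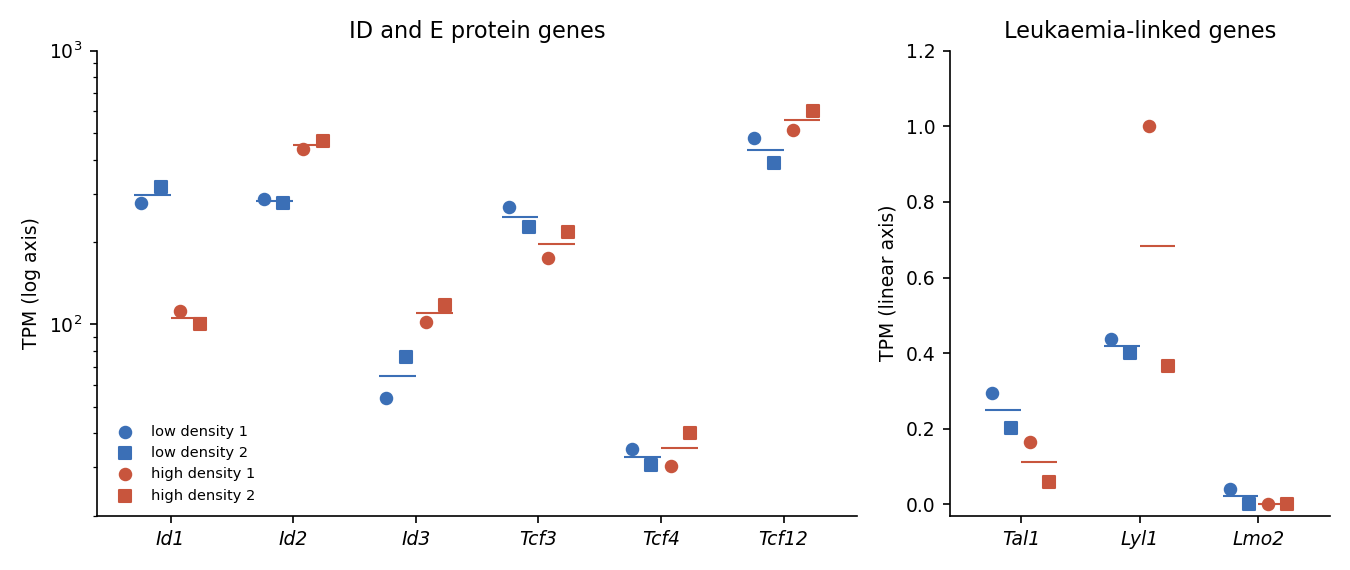
TPM of each member in each library, with the ID and E protein genes on a log axis and the leukaemia-linked genes on a linear axis. Blue marks low and red high density, circles mark library 1 and squares library 2, and lines mark group means. Id1 fell from 297 to 106 TPM on average, Id2 and Id3 lay higher in both high density libraries, and no leukaemia-linked gene exceeded 1.00 TPM.

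Id1 encodes an ID protein widely expressed in proliferating cells and induced by bone morphogenetic protein signals. Its level was 277 and 317 TPM in the low density libraries and 112 and 100 TPM in the high density libraries. Both low density values lay far above both high density values. The means were 297 ± 28.1 and 106 ± 7.94 TPM (SD, n = 2 each), a level 2.80-fold lower at high density. The log2 fold change was −1.48 ± 0.23 (SE), with a 95% interval of −1.98 to −0.98 and a limma adjusted p of 0.00363. The call was lost without low density library 2, where the log2 fold change was −1.38. It was kept without each of the other 3 libraries (−1.57 to −1.40). With a low density library left out the spread comes from the high density pair alone. Id1 stood above 97.6% and 98.1% of all rows in the low density libraries and above 93.1% and 90.8% in the high density libraries.

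Among stromal markers the collagen genes were unequal between the low density libraries. The summed TPM of 6 markers of stroma and thymic epithelium was 45.1 in low density library 1, almost all of it Col1a1 and Col1a2. It was between 0.325 and 0.561 in the other 3 libraries. The other markers did not share that level: in low density library 1 Pdgfra was at 0.073, Foxn1 at 0.193 and Psmb11 at 0.019 TPM, and Epcam was at 0 throughout. That library also had 35 rows at 5 TPM or more whose values were under 0.5 TPM everywhere else. Id1 was at 277 TPM in low density library 1 and 317 TPM in low density library 2, and any part of stromal RNA in its level was not tested. In bulk RNA, fewer cells expressing a gene and less RNA per cell cannot be told apart.

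Id2 encodes the ID protein best known for its part in innate lymphoid and effector T cells. It stood at 288 and 277 TPM at low and at 439 and 467 TPM at high density. The groups were well separated, with each pair close together. The means were 282 ± 8.05 and 453 ± 20.3 TPM (SD, n = 2 each), a ratio of 1.60. The log2 fold change of 0.68 ± 0.22 (SE, 95% interval 0.20 to 1.16) did not pass after adjustment over all rows (limma adjusted p = 0.0860). It passed without high density library 1 (0.73, limma adjusted p = 0.0170) and without high density library 2 (0.63, limma adjusted p = 0.0354), where a single high density library is assumed to vary like the low density pair. It did not pass with low density library 1 left out (adjusted p of 0.540 by limma) or with low density library 2 left out (0.821). Markers of innate lymphoid and natural killer cells were near 0: Ncr1 and Il1rl1 were at 0 in all libraries, and the 4 markers together reached at most 0.152 TPM.

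Id3, the ID gene that receptor signalling induces in thymocytes, was the least abundant of the family at low density. Its level was 53.6 and 75.8 TPM there and 102 and 118 TPM at high density. Both high density values lay above both low density values, though the low density pair was spread more widely in relation to its mean than that of Id2. The means were 64.7 ± 15.7 and 110 ± 11.2 TPM (SD, n = 2 each), a ratio of 1.70. The log2 fold change was 0.77 ± 0.26 (SE, 95% interval 0.21 to 1.34), and the limma adjusted p of 0.0984 was above the threshold. With high density library 1 left out the gene passed, at 0.87. It did not pass with high density library 2 (0.67), low density library 1 (0.53) or low density library 2 (1.02) left out. In each such fit the spread comes from the density that keeps 2 libraries. The 95% intervals of Id2 and Id3 overlap over most of their length and both lie above that of Id1. The difference between members was not tested.

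**Figure D2:**
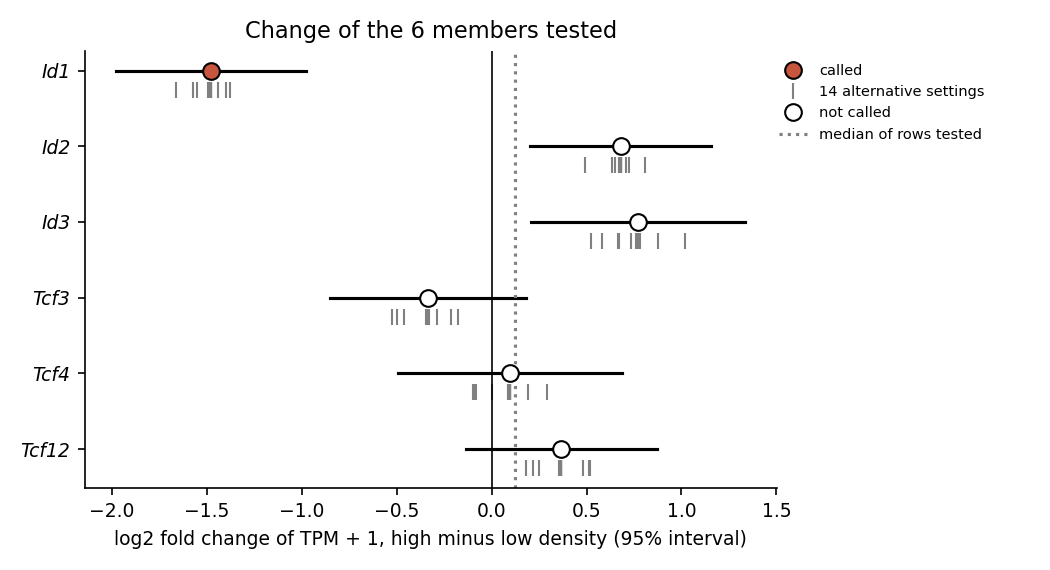
Log2 fold change of TPM + 1 from low to high density for the 6 members tested. Circles are the estimates (filled where called by limma), bars the 95% intervals, and grey ticks the estimates under 14 alternative settings. Only the interval of Id1, from −1.98 to −0.98, lies wholly below 0, those of Id2 and Id3 lie above 0 without passing after adjustment, and those of Tcf3, Tcf4 and Tcf12 include 0.

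Tcf12, the gene of the E protein HEB, was the most abundant member at both densities. Its level was 479 and 389 TPM at low and 514 and 604 TPM at high density. The groups did not overlap, but the gap between them was smaller than the spread within either. The log2 fold change was 0.37 ± 0.23 (SE, 95% interval −0.14 to 0.87, limma adjusted p = 0.368).

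Tcf3 encodes, through splicing, a pair of E proteins that are needed for early lymphocyte development. It stood at 269 and 226 TPM at low and at 174 and 218 TPM at high density. High density library 2 came close to low density library 2, so the groups were barely separated. The log2 fold change was −0.34 ± 0.24 (SE, 95% interval −0.85 to 0.18, limma adjusted p = 0.427), and it lay between −0.52 and −0.18 over the 14 alternative settings.

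Tcf4, the E protein gene that plasmacytoid dendritic cells depend on, was the least abundant of its family. Its level was 35.0 and 30.5 TPM at low and 30.5 and 40.2 TPM at high density, and the groups overlapped. The log2 fold change was 0.10 ± 0.27 (SE, 95% interval −0.49 to 0.68, limma adjusted p = 0.865). It turned to −0.091 with each library centred on its median, to −0.083 after quantile normalisation and to −0.099 without high density library 2, so that no direction can be given. Of 4 markers of plasmacytoid dendritic cells Siglech, the defining one, was at most 0.032 TPM, while Bst2 was at 163 to 340 TPM, Ccr9 at 7.97 to 25.9 TPM and Irf8 at 4.03 to 9.51 TPM. The 4 summed to 192 to 376 TPM, with overlapping densities, and their part in the level of Tcf4 was not tested. The intervals of the 3 E protein genes reach up to 0.87 and down to −0.85 on the log2 scale, and a missed threshold does not show that their levels were equal.

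The 3 leukaemia-linked genes lay near or below 1 TPM. Lyl1 stood above 53.9% to 57.9% and Tal1 above 49.1% to 53.0% of all rows, many of which are at 0. Lyl1, the TAL1-related factor of stem cells and early precursors, was at 0.437 and 0.401 TPM at low and at 1.00 and 0.366 TPM at high density. High density library 1 was the highest and library 2 the lowest of the 4, so the groups overlapped. Tal1, the stem cell and erythroid factor, was at 0.295 and 0.203 TPM at low and at 0.165 and 0.058 TPM at high density. Its low density values lay above the high density ones, at levels too low to be tested. Lmo2 was listed at 0.041 TPM in low density library 1 and at 0 in the other 3. Low density library 1 also had the most rows above 0, with 15553 against 13605 to 13892 in the others. TPM keeps no read depth, so no detection limit can be given for these rows. The summed TPM of the 3 genes was 0.424 to 1.17 per library, against 646 to 862 for the E protein genes.

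The labelled cell type was checked by markers. All 8 T lineage markers were above the filter, with a summed level of 5397 to 5961 TPM. Of these 8 the receptor constant regions Trac (14.4 and 13.4 TPM against 84.8 and 116 TPM) and Trdc (18.1 and 16.0 TPM against 101 and 77.1 TPM) were called higher at high density. Among all rows tested 4.57% were called higher. The 4 myeloid markers summed to 6.62 to 16.1 TPM, nearly all of it Itgam, which had 8.27 and 6.62 TPM at low density and 16.1 and 12.1 TPM at high density and was not called, with Lyz2 at 0. The 5 B lineage markers summed to at most 1.30 TPM, with Ms4a1 and Cd79b at 0. Of 7 erythroid and megakaryocyte markers 4 passed the filter, and the 7 summed to 9.71 to 15.5 TPM. Gata1 was at 2.59 to 4.67 TPM and Klf1 at 2.50 to 4.14 TPM. Epor was at 1.25 to 3.60 TPM and Itga2b at 1.49 to 4.94 TPM. The globin genes Hba-a1 and Hbb-b1 and the platelet gene Pf4 were at 0. Among endothelial markers Cdh5 was at 0, and the sum of 37.8 to 63.3 TPM was nearly all Pecam1.

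At low density the order of levels was Tcf12, then Id1, Id2 and Tcf3, then Id3 and Tcf4, with Lyl1, Tal1 and Lmo2 far below. Id1 and Id2 overlapped there and cannot be ordered, while the ranges of the other neighbours among the 6 abundant genes did not overlap. At high density the order was Tcf12, Id2, Tcf3, Id3, Id1 and Tcf4. Id3 and Id1 overlapped, and the other neighbours among the 6 did not. Id1 thus stood level with Id2 at low density and level with Id3 at high density.

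The summed RNA of the ID family was nearly the same at both densities, while its makeup differed. The sum of Id1, Id2 and Id3 was 619 and 669 TPM at low and 652 and 685 TPM at high density, and the ranges overlapped. Id1 made up 44.8% and 47.3% of that sum at low density and 17.1% and 14.6% at high density. Id2 made up 46.6% and 41.3%, and then 67.3% and 68.2%. The share of Id3 went from 8.67% and 11.3% to 15.6% and 17.2%. For each of the 3 genes the shares of the densities did not overlap. The ratio of Id2 to Id1 TPM went from 0.957 ± 0.118 to 4.30 ± 0.514 (SD, n = 2 each). Shares within a family are not independent of each other, and no test was made on them.

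The E protein sum was 783 and 646 TPM at low and 719 and 862 TPM at high density, with overlapping ranges. Tcf12 made up 61.2% and 60.2% of it at low density, against 71.5% and 70.0% of it in dense cells. Tcf3 made up 34.3% and 35.0%, and then 24.3% and 25.3%. The share of Tcf4 was between 4.24% and 4.73% in all 4 libraries. The shares of the libraries within each density lay close together, and for Tcf12 and Tcf3 those of the densities did not overlap. The ratio of Tcf12 to Tcf3 was 1.75 ± 0.0452 at low and 2.86 ± 0.128 at high density (SD, n = 2 each). A ratio within a library does not depend on how that library was scaled, but neither gene passed the test alone.

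**Figure D3:**
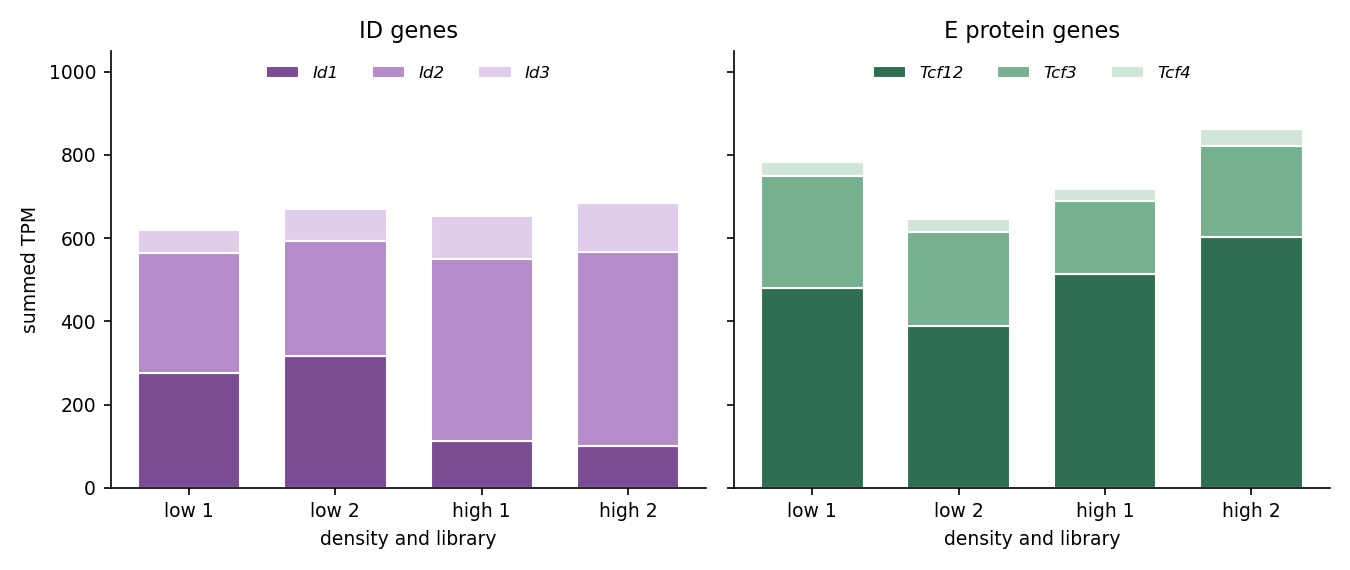
Summed TPM of the ID genes (left) and of the E protein genes (right) in each library, with 1 bar per library divided by gene. The ID bars are of like height, from 619 to 685 TPM, while Id1 shrinks from 44.8% and 47.3% of them to 17.1% and 14.6%, and in the E protein bars Tcf12 holds 61.2% and 60.2% at low density against 71.5% and 70.0% at high density.

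The ratio of summed ID to summed E protein TPM was 0.790 and 1.04 in the low density libraries, against 0.907 and 0.795 in the others. The low density libraries enclosed both high density libraries. The means were 0.913 ± 0.174 and 0.851 ± 0.0796 (SD, n = 2 each), a difference smaller than the spread between the low density libraries. These are ratios of RNA, and protein was not measured.

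Genes around the members were read from 6 lists, by their counts and medians. In the list of genes linked to E proteins in T cell precursors, 5 of 19 tested members fell and 2 rose, beside 2.11% and 4.57% of all rows, and the median log2 fold change was 0.17. Rag1, a subunit of the recombinase, fell from 609 and 480 TPM to 185 and 182 TPM (log2 fold change −1.56, SE 0.23, limma adjusted p = 0.00283). Cdk6, a cyclin-dependent kinase of the G1 phase that E proteins are known to restrain, fell from 69.7 and 64.7 TPM to 27.8 and 30.4 TPM (−1.18 ± 0.25 SE, limma adjusted p = 0.0173). The others that fell were Rag2, Il7r, the receptor of interleukin 7, and Socs1, an inhibitor of cytokine signalling. Gata3 and Hes1 rose. Rag1 alone among these 7 kept its call without each library in turn. Rag2, Cdk6, Il7r and Socs1 lost theirs without either low density library, and Gata3 (1.38) and Hes1 (1.42) without low density library 2. In such a fit the spread comes from the high density pair alone, so a lost call does not single out that library. With low density library 1, then 2, left out the log2 fold changes were −1.44 and −1.67 for Rag2 and −1.13 and −1.23 for Cdk6. For Il7r they were −1.17 and −1.70, and for Socs1 −0.81 and −0.99. The list holds genes that E proteins activate and genes that they repress, so its count has no single expected direction. For this and the other lists, counts with a library left out are given at the end, beside those of all rows.

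Partners of the TAL1, LYL1 and LMO2 complex were largely above the filter, although the 3 factors were below it. Of 20 partners 14 passed the filter. The adaptor gene Ldb1 was at 256 to 301 TPM, and Lmo4, a relative of Lmo2, at 192 to 257 TPM, with overlapping groups for each gene. Both were picked after their values were seen. Gata3, a T cell factor that joins these complexes, was the 1 of 14 called, beside 6.68% of all rows in either direction. It rose from 72.7 and 58.4 TPM to 264 and 138 TPM (log2 fold change 1.54, limma adjusted p = 0.0130). The call was lost with low density library 2 left out, where the log2 fold change was 1.38. It was not called with each library centred on its median (0.113) or after quantile normalisation (0.0836). The list median was −0.10.

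Of 16 genes linked to TAL1 and LMO2 in leukaemia only 7 passed the filter, and 1 rose, beside 4.57% of all rows. Trib2, a pseudokinase, went from 34.9 and 32.0 TPM to 69.4 and 65.0 TPM (log2 fold change 0.99 ± 0.25 SE, limma adjusted p = 0.0369). Leaving out low density library 1 or library 2 ended that call, at log2 fold changes of 1.05 and 0.92. The spread in those fits comes from the high density pair alone. The median of the 7 was 0.51.

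The list of inputs to Id gene transcription held receptors and SMAD factors of the bone morphogenetic protein and TGF-β pathways. It also held the Egr factors downstream of the T cell receptor. Of 22 genes 11 passed the filter and 0 were called, beside 6.68% of all rows called in either direction. The median log2 fold change of the 11 was 0.30, against 0.12 for all rows tested. The 11 below the filter, not tested, were Egr1, Egr2, Egr3, Acvr1, Acvr2a, Bmpr1a, Bmpr1b, Eng, Tgfbr2, Smad7 and Smad9. Smad4 alone of those tested had an unadjusted limma p under 0.05, as did 2569 of all 10936 rows tested. Smad4, the common SMAD, had 42.2 and 34.1 TPM at low density against 52.2 and 63.6 TPM at high density (log2 fold change 0.59 ± 0.26 SE, limma adjusted p = 0.197). For Smad5, which carries bone morphogenetic protein signals, the value was 0.54 ± 0.27 (SE, adjusted p = 0.246 by limma). Without high density library 1 the log2 fold changes of Smad4 and Smad5 were 0.73 and 0.81, and without high density library 2 they were 0.45 and 0.28.

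Among cofactors and turnover factors of E and ID proteins 1 of 18 tested members was called, a share near the 6.68% of all rows called in either direction. The list median was 0.04. Kat2a, an acetyltransferase that serves as a coactivator, fell from 149 and 130 TPM to 71.8 and 79.6 TPM (log2 fold change −0.87 ± 0.24 SE). Its limma adjusted p of 0.0491 was at the edge of the threshold. That p rose above it with a pseudocount of 0.1 or 5, without the variance trend and with the replicate block (0.0550). Kat2a also lost the call without low density library 1 (log2 fold change −0.77) or library 2 (−0.97), where the spread is that of the high density pair. Usp1, the deubiquitinase known to stabilise ID proteins and chosen after its value was seen, was at 221 to 278 TPM with overlapping groups. Leaving out a library gave 0 to 3 higher and 0 to 3 lower members.

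Of 60 other helix-loop-helix genes 27 passed the filter. The median of the 27 was 0.55, against 0.12 for all rows tested. Those called were 4 that rose and 0 that fell, beside 4.57% and 2.11% of all rows. They were the hypoxia-induced repressor gene Bhlhe40, from 6.95 and 5.41 TPM to 198 and 105 TPM, the lysosomal regulator Tfeb, from 4.73 and 3.35 TPM to 14.4 and 20.5 TPM, the MYC antagonist Mxi1, from 30.3 and 22.4 TPM to 99.4 and 57.0 TPM, and the Notch target Hes1. Only Bhlhe40 and Tfeb remained called with each library centred on its median. Tfeb, Mxi1 and Hes1 were no longer called when low density library 2 was left out, at log2 fold changes of 1.67, 1.29 and 1.42. Id4, the fourth ID gene, was listed at 0.237 TPM in low density library 1 and at 0 in the other 3.

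**Figure D4:**
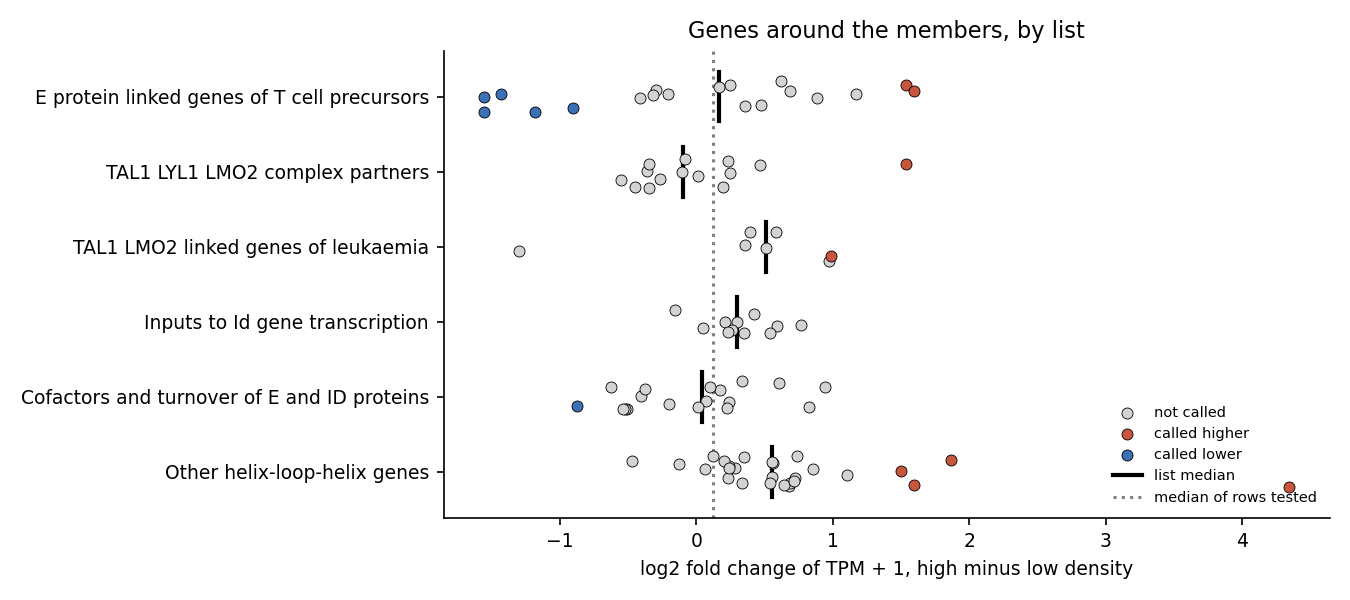
Log2 fold change of TPM + 1 for each tested gene of the 6 lists, with called genes in red (higher) or blue (lower), list medians as black bars and the median of all rows tested, 0.12, as a dotted line. The genes linked to E proteins hold 5 called lower and 2 called higher, while Bhlhe40 stands apart at the right among the other helix-loop-helix genes.

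The rows most like Id1 across the 4 libraries, by Euclidean distance between log2(TPM + 1) values centred on each gene's mean, were Rbfox2, a splicing factor gene (distance 0.0932), Dbh, the gene of dopamine beta-hydroxylase (0.129), and Snhg4, a small nucleolar RNA host gene (0.130). Rbfox2 was at 4.87 and 5.17 TPM at low and 1.34 and 1.10 TPM at high density. Snhg4 was at 99.3 and 129 TPM at low and 41.6 and 37.2 TPM at high density. Dbh was at 1.90 and 2.00 TPM at low and 0.137 and 0.072 TPM at high density and was not called (limma adjusted p = 0.0643). Because 1 is added before the log, changes of low rows shrink. By mean TPM Dbh was 18.6-fold and Rbfox2 4.12-fold lower, against 2.80-fold for Id1. With 4 libraries, likeness of this kind is a description only.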

How the data were processed

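The values are TPM as the authors deposited them, in a table with a column for each library, and the sample descriptions name the column of each. Per the labels' protocols the libraries were strand-specific. The submitters' processing notes name mm9 and DESeq2 1.2.10 without a role, and for the aligner, the counter and the annotation the sources used here give nothing. TPM keeps no depth and is relative to all RNA in a library, so no counting interval is given.

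Values were tested as log2(TPM + 1) with limma 3.58.1 in R 4.3.3 (group term, moderated variances with a mean-variance trend, two-sided, 2 residual degrees of freedom plus 9.53 from moderation). Rows averaging at least 1 TPM were fitted, 10936 of 25630, and p-values were adjusted over all of them. Rows under Ensembl identifiers, 699 in number, were given symbols from a table of mouse gene names. The fit was run on simulated data with equal noise in every row and planted changes larger than that of Id1. That run does not measure power or error for changes as small as those of the members. Ratios and folds not on a log scale divide mean TPM by mean TPM. Alternatives were other pseudocounts, filters, scalings and variance models, a replicate block and leaving out each library.

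The members and the lists were chosen with earlier results of these data known. From each list the text names up to 4 called genes of smallest p, or 2 where none was called, and others are named by count or after their values were seen. Rows most like the member of smallest p were taken by profile distance.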

Additional observations from a re-analysis of the deposited data

How the results depend on the processing

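Id1 kept its direction under all 14 alternatives and its call under 12, with log2 fold changes from −1.66 to −1.38. It lost the call without low density library 2 and without the filter on low values (limma adjusted p = 0.198), where 0 rows of the table and 0 genes of each list were called (2565 rows at an unadjusted p under 0.05), against 731 rows as reported. Rows called were 314 with libraries centred on their medians, of which 51.0% were higher against 68.4% as reported, 360 after quantile normalisation, and 233 to 3270 when leaving out a library. Members called higher ranged from 0 to 2 and members called lower from 0 to 1 when leaving out a library. Tcf4 reversed to −0.091 with centring and −0.083 after quantile normalisation, and leaving out a library gave −0.099 to 0.29, with −4.35e-05 for low density library 2 and −0.099 for high density library 2. The cause was not tested. Rescaling without ribosomal protein genes moved the summed ID TPM to 760 at low and 782 at high density and the summed E protein TPM to 841 and 924, because every value is divided by a smaller total. The ratio of the sums is unaffected by construction. Counts of list genes with a library left out, given next, are to be read beside the rows called in the whole table under those fits. Each of those fits takes its spread from the group left whole, so a lost or gained call does not single out the library removed.

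Higher counts of the genes linked to E proteins were 4 at a mean of at least 5 TPM, 0 with centring or quantile normalisation and 1 without the trend, and leaving out a library gave 0 to 6 higher and 1 to 5 lower. Complex partners had 0 higher with centring or quantile normalisation, with 0 to 1 higher and 0 to 1 lower when leaving out a library. The leukaemia list had 0 higher with centring, quantile normalisation or no trend, with 0 to 4 higher and 0 to 1 lower when leaving out a library. The inputs to Id genes had 0 to 3 higher when leaving out a library. Cofactors had 1 higher at a mean of at least 5 TPM, with robust moderation and with the replicate block, 0 lower with either pseudocount, without the trend and with the block, and 0 to 3 in each direction when leaving out a library. Other helix-loop-helix genes had 2 higher with centring or quantile normalisation, with 1 to 13 higher and 0 to 1 lower when leaving out a library.

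The titles number the libraries of each density, but nothing says that a number marks a shared culture, and the differences between replicates 1 and 2 correlated at only 0.042 across rows. With the replicate block 937 rows were called, 0 members higher and 1 lower. The replicate block gave 1 called higher and 0 called lower among the cofactors. Of the 6 members, none other than Id1 was called under it. With no read depth, rows near 0 such as Lmo2 carry no known precision.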
